A study of Mus musculus with 34 samples.

Results

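The interferon response genes described here are 33 genes named by symbol, all known as genes that interferons induce or that carry interferon signals. On the mouse cornea arrays, 31 of the 33 had a probe set annotated with exactly 1 gene symbol, of 19938 genes in all with such a probe set. Of these 31, 27 lay above the median of their array on at least 2 of 32 whole-cornea arrays and entered the tests, beside 12996 genes tested in all. The other 4, Oas3, Mx1, Mx2 and Cmpk2, were too dim: Oas3 passed its array's median on 1 array and Mx1, Mx2 and Cmpk2 on 0. Isg15 was covered only together with a second symbol, and Ifi44 was not in the annotation used, so neither has a value.

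Whole corneas of wild-type CB6 mice were measured at 12 ages: embryonic days E14.5, E15.5 and E17.5, postnatal days P3, P7, P14 and P28, and 2 months, 6 months, 1 year, 18 months and 2 years. The 8 ages up to 2 months had 3 arrays each and the 4 later ages 2 each, and there was 1 array of dispase-lifted epithelium from P28 and 1 of laser-captured stroma from P7. No animal carried a transgene or a treatment by the labels, so age and layer are the variables of the design. The arrays also differed in batch and in sex-linked genes, as described below, and the 2 layers in how they were isolated. Whether the arrays of an age came from separate animals is not stated, so each p-value reflects just the spread among these samples, which may be technical. The small number of arrays sets the precision.

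Levels are given as log2(intensity + 16), which compresses differences of dim genes, and a difference of 1 on this scale is called a log2 unit. The median of a whole-cornea array was 7.92 to 8.13, and it was 8.48 on the epithelium array and 8.54 on the stroma array. Markers of corneal epithelium stood far above that median at P28. The median of 9 of them was 12.45 to 12.80 at P28, against 12.10 to 12.54 at P7. A group of 8 unannotated probe sets had intensities of at least 1501 on the 18 arrays up to P14 and of at most 12.8 on the 14 arrays from P28. These 2 sets are called array batches here, and any difference across P14 and P28 cannot be told apart from that batch. The median of 16 lens genes stood at least 2 log2 units above its usual value on 5 whole-cornea arrays, E14.5 replicates 2 and 3, P14 replicate 2, 2 months replicate 1 and 6 months replicate 2. In whole corneas, fewer cells of a type and less RNA per cell cannot be told apart. Xist and Y-linked genes differed between arrays: P28 replicate 1 and all arrays of 2 months, 6 months and 2 years had the Xist-high pattern, and P28 replicates 2 and 3 and all arrays of 1 year and 18 months had the Y-linked pattern.

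Interferons are secreted when a cell detects foreign nucleic acid. They bind receptors whose Jak kinases phosphorylate Stat2, and complexes with Stat2 and Irf9 then bind the interferon-stimulated response element in front of the induced genes. The products sense or degrade viral RNA, block translation, trap virus particles and sustain the signal through Irf7, and in the cornea this response is known as a defence against herpes simplex and other viruses of the ocular surface.

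The core of the response element can be read in the members' promoters. RefSeq promoters (GRCm38.p6, 250 bases before to 50 after the gene start) matched 23 of the 31 members. The letters GAAANNGAA, or TTCNNTTTC when read on the other strand, stood in a promoter of 10 of the 23, against 9.76% of 27025 genes. The letters TTCNNNGAA, which read the same on both strands and resemble the element of type II interferon, stood in a promoter of 6 of the 23, against 9.55% of these genes. The promoters below belong to the 5 members with the GAAANNGAA core whose age means differed most between P28 and 2 years, and capitals mark the core on either strand. They are Ifi203 at chr1:173942443-173942742 (minus strand, 1 of 2 promoters listed), Ifit1 at chr19:34640639-34640938 (plus), Ifih1 at chr2:62646206-62646505 (minus), Ifit3 at chr19:34583279-34583578 (plus) and Trim25 at chr11:88999153-88999452 (plus).
Ifi203: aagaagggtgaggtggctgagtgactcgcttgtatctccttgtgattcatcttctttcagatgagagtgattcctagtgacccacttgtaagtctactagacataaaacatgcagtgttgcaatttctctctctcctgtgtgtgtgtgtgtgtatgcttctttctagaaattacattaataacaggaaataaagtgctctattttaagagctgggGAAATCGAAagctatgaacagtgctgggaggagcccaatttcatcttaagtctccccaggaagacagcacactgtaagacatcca
Ifit1: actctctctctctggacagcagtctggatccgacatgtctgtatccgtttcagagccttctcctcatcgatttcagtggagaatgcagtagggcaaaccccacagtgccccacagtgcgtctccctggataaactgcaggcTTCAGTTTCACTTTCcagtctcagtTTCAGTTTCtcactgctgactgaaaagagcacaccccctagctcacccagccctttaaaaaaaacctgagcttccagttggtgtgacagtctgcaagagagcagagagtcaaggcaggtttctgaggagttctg
Ifih1: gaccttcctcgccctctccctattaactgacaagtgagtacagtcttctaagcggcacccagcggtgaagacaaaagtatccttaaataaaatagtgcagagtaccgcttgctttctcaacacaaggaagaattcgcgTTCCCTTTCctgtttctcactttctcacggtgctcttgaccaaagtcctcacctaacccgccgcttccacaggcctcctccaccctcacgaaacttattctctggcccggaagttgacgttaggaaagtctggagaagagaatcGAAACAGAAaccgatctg
Ifit3: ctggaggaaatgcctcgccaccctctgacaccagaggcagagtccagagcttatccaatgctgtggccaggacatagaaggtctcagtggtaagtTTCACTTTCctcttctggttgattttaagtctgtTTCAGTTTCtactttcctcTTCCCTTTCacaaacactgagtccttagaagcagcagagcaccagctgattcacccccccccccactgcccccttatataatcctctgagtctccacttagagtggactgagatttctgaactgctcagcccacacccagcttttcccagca
Trim25: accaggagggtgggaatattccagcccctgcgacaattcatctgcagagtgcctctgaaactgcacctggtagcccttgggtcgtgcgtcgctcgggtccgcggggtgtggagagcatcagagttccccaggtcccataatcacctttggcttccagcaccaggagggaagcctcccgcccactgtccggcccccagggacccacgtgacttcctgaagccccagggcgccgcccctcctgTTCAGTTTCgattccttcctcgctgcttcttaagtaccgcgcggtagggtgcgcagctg
Ifit1 and Ifit3 held the core 3 times each and Ifih1 held it 2 times. A match is a description of these letters and not evidence of binding. Sp100, Oasl2, Dtx3l, Parp12, Irf7 and Xaf1, which also rose after P7, were among the 13 matched members without the core in this window.

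At the median of the 27 tested genes, levels were low before birth, higher after birth and highest from P28 on, where the array batch also changes. Not every member followed this: Ifit2 had its highest age mean at E15.5 and Rsad2 at E17.5. The median deviation of the 27 tested genes from their own mean over 32 arrays lay between -0.97 and -0.66 log2 units on the 9 arrays before birth, and between -0.52 and -0.01 on the 9 arrays of P3 to P14. It lay between 0.04 and 1.53 on the 14 arrays of P28 to 2 years, while the median over all genes tested stayed between -0.08 and 0.08 on every array. Over the 12 ages 23 of the 27 changed by limma's F-test, with 40.6% of all genes tested changing by the same rule (adjusted p under 0.05 and a range of age means of at least 1). Oasl2 spanned the most, 5.34 log2 units between its highest and lowest age mean (adjusted p = 4.89e-10), followed by Ifih1 (4.26), Trim25 (4.22) and Ifi203 (4.13). The 4 that did not pass this rule were Stat2, Rsad2, Bst2 and Zbp1, whose levels over all 32 arrays lay within 7.75 to 8.88, 6.79 to 8.22, 7.68 to 8.59 and 7.43 to 8.51. Their age means spanned 0.76, 0.78, 0.51 and 0.94 log2 units, less than the 1 required. At an unadjusted F-test p under 0.05, 26 of 27 members passed, against 81.6% of all genes. Within E14.5 to P14, 15 of 27 changed, against 19.6% of all genes, and within P28 to 2 years 7 of 27, against 6.77%.

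**Figure D1:**
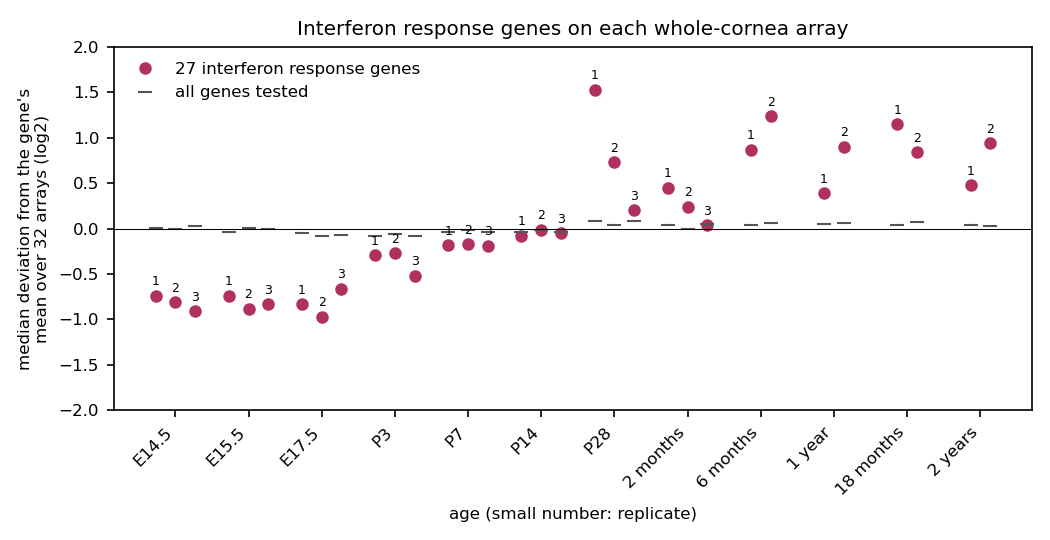
Median over 27 interferon response genes of the deviation from each gene's mean over 32 arrays (log2, vertical axis) for each whole-cornea array (points, with replicate numbers) at 12 ages (horizontal axis), with the same median over all genes tested (dashes). The points lie at or below -0.66 up to E17.5, near 0 at P14 and at or above 0.04 from P28, where the 3 arrays span 0.20 to 1.53.

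Between P7 and P28, 4 of 9 RNA sensors and RNA-binding effectors tested rose, with all 4 Parp and Dtx3l genes and 2 of 5 transcription factors and nuclear body genes. Of the 27 members 13 were higher at P28 than at P7 and 0 were lower, against 5.94% of all genes higher and 4.57% lower. At an unadjusted p under 0.05, 22 of 27 passed in either direction, against 43.8% of all genes. Their median difference was 1.10 log2 units, against 0.09 over all genes, and 25 of 27 differences were positive. P7 and P28 lie in different array batches, so the age and the batch cannot be told apart in these values. The replicate number as a block gave the same 13.

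Among the RNA sensors and RNA-binding effectors, Ifih1, the sensor of long double-stranded RNA also called MDA5, had 10.49, 10.09 and 9.61 at P28, against 8.17, 8.27 and 8.07 at P7. All P28 arrays were above all P7 arrays, a difference of 1.89 ± 0.22 (SE, adjusted p = 8.6e-07). Oasl2, a member of the oligoadenylate synthetase-like family, had 10.86, 9.89 and 9.07 at P28, against 8.31, 8.77 and 7.64 at P7, and the groups did not overlap (1.70 ± 0.44, adjusted p = 0.00378). Ifit1, which binds viral RNA that lacks the host's cap marks, had 10.95, 9.32 and 7.71 at P28, against 7.28, 7.63 and 7.50 at P7. Its P28 arrays spread over more than 3 log2 units, with the lowest just above P7, and the difference was 1.85 ± 0.48 (adjusted p = 0.00387). Ifit3, a partner of Ifit1, had 11.51, 10.43 and 9.14 at P28, against 8.76, 9.08 and 9.28 at P7, so the groups overlapped (1.32 ± 0.43, adjusted p = 0.0205). Without P28 replicate 1, Ifit1 differed by 1.04 (adjusted p = 0.0522) and Ifit3 by 0.74 (adjusted p = 0.199), and neither passed. Both also lost the call with the other ages left out of the fit (adjusted p = 0.0602 and 0.071). Ifit3 lost it too after quantile normalization (adjusted p = 0.0748) and without P7 replicate 1 or P28 replicate 2.

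Other members of the same role did not pass. Oasl1, which in mice represses translation of Irf7, differed by 0.73 and Oas2, an oligoadenylate synthetase, by 0.67. Eif2ak2, the kinase PKR that halts translation on double-stranded RNA, differed by 0.61 and Zbp1, a sensor of Z-form nucleic acids, by 0.39. All 4 had an adjusted p under 0.05 and missed the 1 log2 unit required. Ifit2, a relative of Ifit1, ran the other way, with 8.54, 8.01 and 7.76 at P28, against 9.16, 8.75 and 8.58 at P7 (-0.72 ± 0.26, adjusted p = 0.0332).

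Among the transcription factors and nuclear body genes, Sp100, a component of nuclear bodies that restrain viral genomes, differed most among the members tested. It had 10.05, 8.93 and 8.18 at P28, against 6.81, 6.98 and 6.32 at P7, with no overlap (2.35 ± 0.35, adjusted p = 1.78e-05). Up to P14 its level never passed 7.03 on any of 18 arrays. Irf7, the factor that amplifies interferon production, had 9.40, 8.36 and 7.67 at P28, against 7.47, 7.12 and 7.54 at P7 (1.10 ± 0.34, adjusted p = 0.0141), and without P28 replicate 1 it differed by 0.64 (adjusted p = 0.152). Irf7 also lost the call with an offset of 64 (0.93), with the other ages left out of the fit (adjusted p = 0.0506) and without P7 replicate 2 (0.97). Irf1, a factor downstream of both interferon types, differed by 0.90, Irf9, the DNA-binding partner of Stat2, by 0.76, and Stat2 by 0.31. None of these 3 passed.

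All 4 Parp and Dtx3l genes rose. Parp9, which pairs with the ubiquitin ligase Dtx3l, had 10.34, 10.05 and 9.10 at P28, against 8.01, 8.11 and 7.67 at P7 (1.90 ± 0.26, adjusted p = 5.1e-06). Dtx3l had 10.30, 9.97 and 9.10 at P28, against 7.83, 8.02 and 7.46 at P7 (2.02 ± 0.26, adjusted p = 3.26e-06). Parp12 and Parp14, both mono-ADP-ribosyltransferases, differed by 1.46 ± 0.16 and 1.79 ± 0.27. In all 4 genes every P28 array was above every P7 array.

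Trim25, the ubiquitin ligase that activates the RNA sensor Ddx58, had 11.54, 11.43 and 10.79 at P28, against 9.93, 10.01 and 9.81 at P7 (1.34 ± 0.33, adjusted p = 0.00235). After quantile normalization Trim25 differed by 0.99 and lost the call. Usp18, which removes Isg15 from proteins and restrains the receptor, differed by 0.36 and did not pass. Of the remaining induced genes, Xaf1, a binding partner of the apoptosis inhibitor Xiap, had 9.50, 8.36 and 8.08 at P28, against 7.38, 7.40 and 7.50 at P7 (1.22 ± 0.29, adjusted p = 0.00193). Ifi203, of the family of nucleic acid binding Pyhin proteins, had 10.27, 9.61 and 9.32 at P28, against 8.50, 9.17 and 6.64 at P7 (1.63 ± 0.46, adjusted p = 0.00699). Its P7 arrays spread by more than 2 log2 units, and without P7 replicate 3 the difference was 0.90 (adjusted p = 0.101). With the other ages left out of the fit Ifi203 lost the call as well (adjusted p = 0.0562). Ifi35 differed by 0.87 with no overlap and did not reach 1 log2 unit. Without P28 replicate 1, Xaf1 differed by 0.80 and lost its call too, and 9 of the 13 members were still called.

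None of the 4 antiviral effectors tested passed by limma. Samhd1, which hydrolyses deoxynucleotides, differed by 0.23, Rsad2, the enzyme viperin, by 0.30, and Bst2, which tethers virus particles to the cell surface, by -0.05. Rtp4, a chaperone-like protein with antiviral activity, had 11.23, 9.82 and 8.08 at P28, against 9.10, 8.45 and 8.26 at P7. The lowest P28 array lay below every P7 array, and the difference of 1.10 ± 0.55 did not pass (adjusted p = 0.127). Mx1 and Mx2, dynamin-like GTPases that block virus replication, and Cmpk2, a mitochondrial nucleotide kinase, stayed below the array median on all 32 arrays, with a highest level of 6.84, 7.11 and 7.15.

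**Figure D2:**
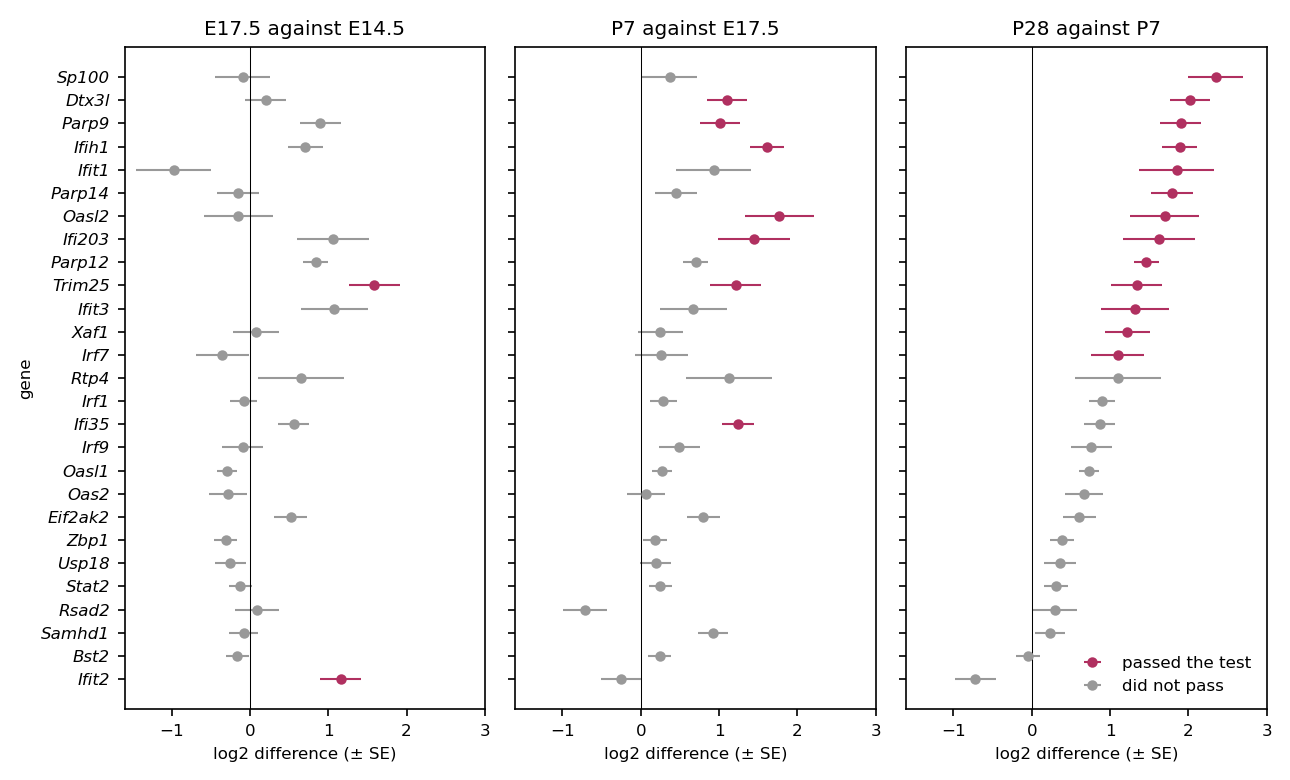
Log2 difference with its SE (horizontal axis) of 27 interferon response genes (vertical axis, ordered by the right panel) for 3 intervals, E17.5 over E14.5 (left), P7 over E17.5 (middle) and P28 over P7 (right), with genes that passed the test in red. Calls number 2, 7 and 13 from left to right, all of them to the right of 0.

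Against P14, the last age of the earlier array batch, 8 of the 13 passed at P28 and no other member did, with 4.14% of all genes higher. They were Ifit1 (1.62), Ifih1 (1.42), Sp100 (2.17), Parp9 (1.61), Parp12 (1.44), Parp14 (1.31), Trim25 (1.27) and Dtx3l (1.68). Without P28 replicate 1, Ifit1 differed by 0.81 and Parp14 by 0.93, and both lost the call. Trim25 lost it after quantile normalization (0.90, adjusted p = 0.0509). Ifit1 also lost it with the other ages left out of the fit (adjusted p = 0.0864) and without the lens-rich arrays (adjusted p = 0.0548). Between P14 and P7, both in the earlier batch, no gene of 12996 was called (0%). At an unadjusted p under 0.05, 2 members and 819 of all genes passed there.

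Markers of several cell types moved over the same interval, and their part in the members' rise was not tested. The summed intensity of 9 epithelial markers was 66158 to 72871 at P28, against 38247 to 49467 at P7, and that of 9 stromal markers was 18003 to 20883 at P28, against 33256 to 51930 at P7. The sum of 16 lens genes was 6291 to 34365 at P28, against 3214 to 3265 at P7. Of 10 leukocyte markers tested 3 were higher at P28, Itgam (2.33), H2-Aa (1.17) and Cd68 (1.01). The summed intensity of the 19 leukocyte markers with a probe set was 3703 to 6611 at P28, against 3569 to 3700 at P7. The median of that list lay at 7.36 to 7.55 at P28, below the array median, and Ptprc, the pan-leukocyte marker Cd45, was at 7.34, 7.37 and 7.10 at P28, against 7.59, 7.50 and 7.73 at P7.

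The prenatal counts lay close to those over all genes. At E17.5, 2 of 27 were higher than at E14.5 and 0 lower, against 5.87% of all genes higher and 1.4% lower, with 10 of 27 at an unadjusted p under 0.05, against 40.7% of all genes. The count of 2 was 4 to 6 under several other settings. Trim25 had 8.99, 7.77 and 9.37 at E17.5, against 6.95, 8.02 and 6.38 at E14.5 (1.59 ± 0.33, adjusted p = 0.000882). The groups overlapped in 1 array on each side, and with the other ages left out of the fit the call was lost (adjusted p = 0.111). Ifit2 had 9.17, 8.87 and 9.19 at E17.5, against 7.78, 7.86 and 8.11 at E14.5, with no overlap (1.16 ± 0.26, adjusted p = 0.00197). Much of this lay in the first day. At E15.5, 4 members were higher than at E14.5, against 7.35% of all genes, namely Trim25 (2.18), Ifit2 (1.56), Ifi203 (1.38) and Ifih1 (1.23). Ifi203 lost this call without the lens-rich arrays (1.01, adjusted p = 0.25), with an offset of 64 and without E14.5 replicate 2 or E15.5 replicate 2 or 3, and Ifih1 differed by 0.79 with an offset of 64. Ifit2 had its highest age mean there, with 9.51, 9.16 and 9.77 on its 3 arrays, all above every array of P28 and later. Between E17.5 and E15.5 no member was called by limma, against 0.569% of all genes in either direction, and 2 of 27 had an unadjusted p under 0.05, against 15.0% of all genes. Lens genes were high on E14.5 replicates 2 and 3, and between E14.5 and E17.5 3 of 4 blood genes and 12 of 16 lens genes tested fell. Stromal markers rose in 7 of 9 genes, skeletal muscle markers in 6 of 9 and epithelial markers in 4 of 9, and the part of these cells in the members' differences was not tested.

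Around birth 7 of 27 members rose and 0 fell between E17.5 and P7, against 2.82% of all genes higher and 2.17% lower. At an unadjusted p under 0.05, 12 of 27 passed, against 25.9% of all genes, and 25 of 27 differences were positive with a median of 0.49, against 0.04 over all genes. Ifih1 had 8.17, 8.27 and 8.07 at P7, against 6.50, 6.32 and 6.87 at E17.5 (1.61 ± 0.22, adjusted p = 2.5e-05). Oasl2 had 8.31, 8.77 and 7.64 at P7, against 5.91, 6.67 and 6.82 at E17.5 (1.77 ± 0.44, adjusted p = 0.00794). Ifi35, an interferon-induced binding partner of Nmi, had 8.47, 9.00 and 8.79 at P7, against 7.29, 7.52 and 7.73 at E17.5 (1.24 ± 0.20, adjusted p = 0.000133). The groups did not overlap in any of these 3 genes. Dtx3l (1.10), Parp9 (1.01) and Trim25 (1.21) passed with no overlap, and Ifi203 (1.44) passed with an overlap, since P7 replicate 3 lay at 6.64 and E17.5 replicate 3 at 6.78. Without P7 replicate 2 the count was 2 of 27, since Oasl2, Parp9, Trim25, Ifi203 and Dtx3l lost the call. Parp9 also lost it with an offset of 64 (0.78), quantile normalization (0.91), array medians subtracted (0.97) or array weights (0.95). The same held for Parp9 without E17.5 replicate 2 or P7 replicate 1. Trim25 lost it with array weights (0.88), with the other ages left out of the fit (adjusted p = 0.103) and without E17.5 replicate 2 (0.74). Dtx3l lost it with an offset of 64 (0.83). Ifi203 lost it when any of 5 of the 6 arrays compared was left out, with adjusted p-values of 0.0713, 0.105, 0.065, 0.128 and 0.263.

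Fewer members were called in the steps inside this interval. At P3, Oasl2 (1.39) and Ifi203 (1.40) were higher than at E17.5, against 0.785% of all genes. Ifi203 lost this call when any of the 6 arrays compared was left out and with the replicate number as a block (adjusted p = 0.0538), and Oasl2 lost it for 5 of the 6. Both also lost it with an offset of 64, after quantile normalization and with array medians subtracted. At P7, Dtx3l was higher than at P3 by 1.16, against 1.35% of all genes, at 7.83, 8.02 and 7.46 on the P7 arrays, against 6.81, 6.75 and 6.27 on the P3 arrays. Dtx3l lost this call with an offset of 64 (0.87) and without P3 replicate 3 (0.99). Epithelial markers rose in the same interval, 5 of 9 tested, among them Aldh3a1 (4.04), a crystallin-like enzyme of the corneal epithelium, and Krt14 (1.58), a basal keratin. Of skeletal muscle markers 8 of 9 fell, of vessel markers 4 of 7 fell and of endothelial markers 2 of 6 rose, and the part of these cells was not tested. The median of 4 Xist and Y-linked genes was 8.69 to 9.28 at E17.5, 4.98 to 5.93 at P3 and 4.93 to 9.35 at P7. By limma all 4 had an unadjusted p under 0.05 at P3 and at P7 against E17.5. The part of sex in the members' differences was not tested.

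**Figure D3:**
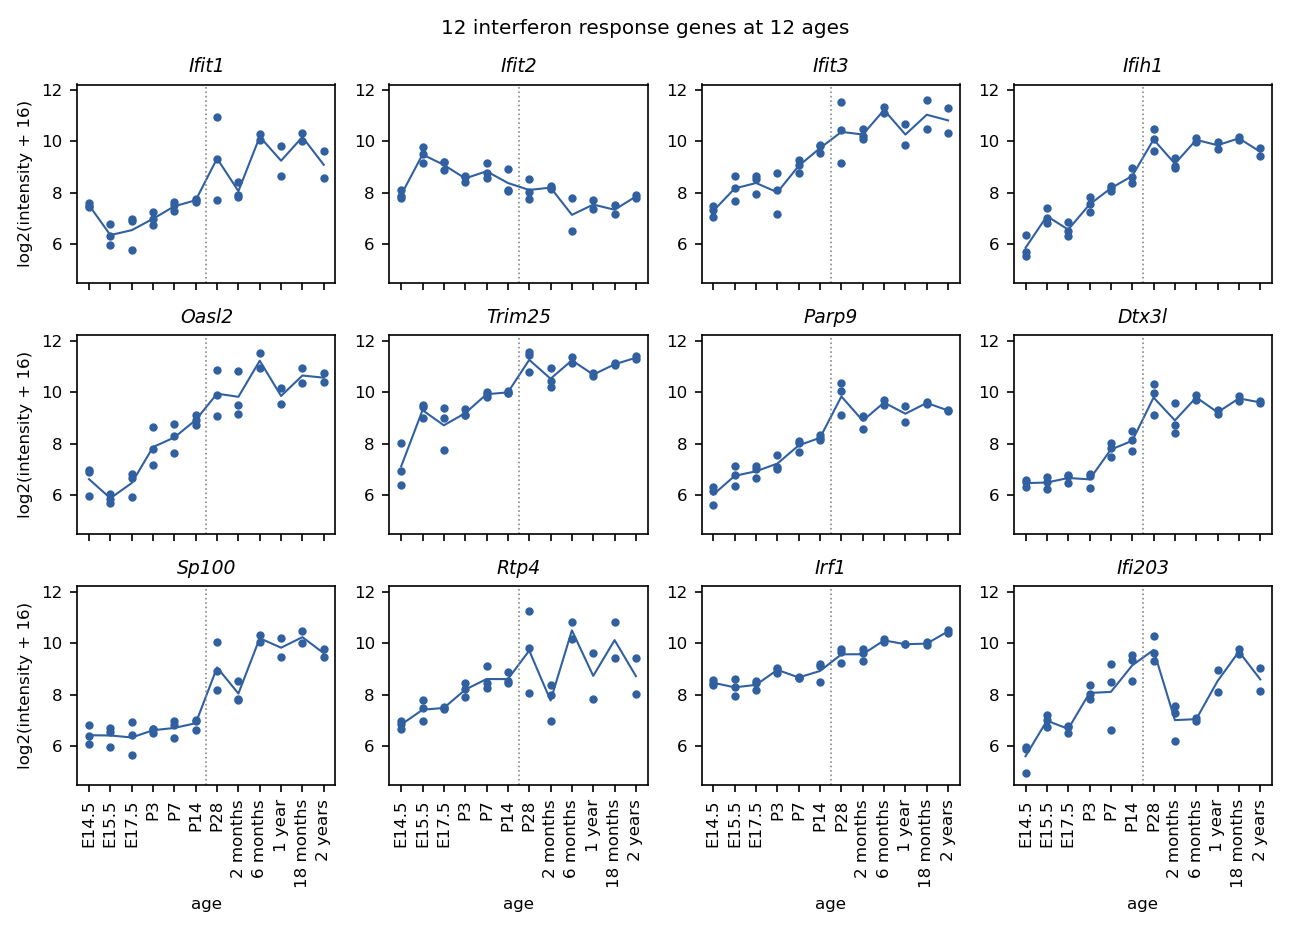
Log2(intensity + 16) of 12 interferon response genes (vertical axes) on each whole-cornea array (points) with the mean of each age (line) over 12 ages (horizontal axes), and a dotted line between the 2 array batches. Ifih1, Oasl2, Trim25 and Parp9 climb from before birth, Sp100 stays at or below 7.03 until P14, Ifit2 peaks at E15.5, and Rtp4, Ifit1 and Ifi203 swing between the later ages.

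Over the whole span, 14 of 27 members were higher at 2 months than at E14.5 and 0 were lower, against 10.3% of all genes higher and 6.02% lower. At an unadjusted p under 0.05, 16 of 27 passed, against 51.9% of all genes. The median difference was 1.11, against 0.01 over all genes. Trim25 (3.41 ± 0.33), Ifih1 (3.27 ± 0.22), Oasl2 (3.20 ± 0.44), Ifit3 (2.96 ± 0.43) and Parp9 (2.87 ± 0.26) led. Dtx3l (2.43), Ifi35 (2.30) and Parp12 (2.22) followed, all without overlap. The other 6 called were Sp100 (1.62), Ifi203 (1.40), Eif2ak2 (1.34), Xaf1 (1.17), Parp14 (1.13) and Irf1 (1.11). Lens genes were high on E14.5 replicates 2 and 3 and on 2 months replicate 1, and without the lens-rich arrays these last 6 lost the call and 8 were called. The 2 ages also lie in different array batches and cannot be told apart from them.

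From P28 on, all arrays lie in the later batch, and few members were called between neighbouring ages. At 2 months, 3 members were lower than at P28, against 1.5% of all genes, and 3 of 27 differences were positive, against 42.3% over all genes. Rtp4 had 8.36, 7.98 and 6.96 at 2 months, against 11.23, 9.82 and 8.08 at P28 (-1.94 ± 0.55, adjusted p = 0.0144). Ifi203 had 6.18, 7.57 and 7.27 at 2 months, against 10.27, 9.61 and 9.32 at P28, with a gap of more than 1 log2 unit between the groups (-2.73 ± 0.46, adjusted p = 0.000523). Sp100 had 8.52, 7.78 and 7.82 at 2 months, against 10.05, 8.93 and 8.18 at P28, an overlap of 1 array on each side (-1.01 ± 0.35, adjusted p = 0.0396). Without P28 replicate 1, Rtp4 differed by -1.18 (adjusted p = 0.131) and Sp100 by -0.51 (adjusted p = 0.305), and both lost the call. Both also lost it with 2 months replicates 2 and 3, marked 1B and 1A, averaged (adjusted p = 0.0543 and 0.134). The same held with the other ages left out of the fit (adjusted p = 0.078 and 0.112) and without 2 months replicate 3 (adjusted p = 0.0784 and 0.117). Sp100 lost the call too with an offset of 1 or 64, after quantile normalization and without P28 replicate 2 or 2 months replicate 2. All 2-month arrays had the Xist-high pattern and P28 replicates 2 and 3 the Y-linked one, and the part of sex was not tested.

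At 6 months, 5 members were higher than at 2 months, against 0.215% of all genes, and 1 was lower, against 1.04%. At an unadjusted p under 0.05, 20 of 27 passed, against 21.5% of all genes, and the median difference was 0.71, against 0.04 over all genes. Rtp4 had 10.17 and 10.82 at 6 months, against 8.36, 7.98 and 6.96 at 2 months (2.73 ± 0.62, adjusted p = 0.0174). Sp100 had 10.06 and 10.32 at 6 months, against 8.52, 7.78 and 7.82 at 2 months (2.15 ± 0.39, adjusted p = 0.00502). Ifit1 had 10.06 and 10.28 at 6 months, against 7.84, 8.41 and 7.92 at 2 months (2.11 ± 0.54, adjusted p = 0.0333). No array of either age crossed in these 3 genes, and all arrays of both ages had the Xist-high pattern. Parp14 (1.16) and Oas2 (1.09) were the other 2 that rose. Ifit2 fell, with 6.49 and 7.78 at 6 months, against 8.26, 8.19 and 8.13 at 2 months (-1.05 ± 0.29, adjusted p = 0.0476). Without 6 months replicate 1 it differed by -0.41. Its call was also lost with an offset of 64, after quantile normalization (adjusted p = 0.14) and with array medians subtracted (adjusted p = 0.086). Leaving out single arrays of other ages, such as E14.5 replicate 2 (adjusted p = 0.0544), ended it too. Leaving out either 6-month array ended the calls of Ifit1, Rtp4 and Parp14, whose differences stayed between 1.04 and 3.06, and leaving out 6 months replicate 2, which was rich in lens genes, ended that of Oas2 (0.69). Leaving out 2 months replicate 2 or 3 also ended the calls of Ifit1, Oas2, Rtp4 and Parp14. Averaging these 2 arrays, which carry the unexplained marks 1A and 1B, ended those of Ifit1, Oas2, Rtp4, Parp14 and Ifit2. The adjusted p-values by limma were then 0.0881, 0.0796, 0.0688, 0.122 and 0.126. With the replicate number as a block, Ifit1 (2.08, adjusted p = 0.0519) and Ifit2 (-1.08, adjusted p = 0.0602) lost the call. Sp100 kept its call when any 1 array was left out. The summed intensity of the stromal markers was 5329 to 8727 at 6 months, against 17491 to 22939 at 2 months. That of 9 retina markers was 6837 to 34923 at 6 months, against 2226 to 12631 at 2 months. Of 6 endothelial markers 4 were lower at 6 months, and the part of these cells was not tested.

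No member was called in the later steps by limma. At 1 year against 6 months 0.208% of all genes were called in either direction and 5 of 27 members had an unadjusted p under 0.05, against 9.2% of all genes, with 4 of 27 differences positive. At 18 months against 1 year the share was 0.854%, with 3 of 27 members at an unadjusted p under 0.05, against 11.2% of all genes, and 22 positive. At 2 years against 18 months it was 0.446%, with 6 of 27, against 8.2% of all genes, and 4 positive. Over all genes 50.8%, 54.1% and 46.3% of the differences were positive in these steps. The median difference was -0.33, 0.41 and -0.22 log2 units for 1 year, 18 months and 2 years against the age before, and 0.00, 0.02 and -0.02 over all genes.

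With ageing, taken as 1 year, 18 months and 2 years against 2 and 6 months, 1 of 27 members was higher, against 0.123% of all genes, and 0 were lower, against 0.554%. At an unadjusted p under 0.05, 5 of 27 passed, against 19.0% of all genes, and the median difference was 0.16, against 0.01 over all genes. The member called was Ifi203, at 8.10 and 8.95 at 1 year, 9.77 and 9.57 at 18 months and 8.14 and 9.04 at 2 years, against 6.18, 7.57 and 7.27 at 2 months and 7.10 and 6.99 at 6 months. Every array of the 3 older ages was above every array of 2 and 6 months (1.90 ± 0.34, adjusted p = 0.0029), and the call held when any 1 array was left out. At P28, which is not part of this comparison, Ifi203 stood at 10.27, 9.61 and 9.32, its highest age mean. Sp100 (0.77, adjusted p = 0.0996), Usp18 (0.39), Irf1 (0.30) and Bst2 (-0.27), the other 4 at an unadjusted p under 0.05, did not pass. Irf1 was highest at 2 years, with 10.41 and 10.50. The 5 arrays of 2 and 6 months all had the Xist-high pattern, and 4 of the 6 arrays of the older ages the Y-linked one, with Xist lower by 4.17 and Eif2s3y, a Y-linked gene, higher by 4.48. Of 6 endothelial markers 2 were lower with ageing, of 9 retina markers 4 and of 9 stromal markers 1. The part of sex and of these cells in the Ifi203 difference was not tested.

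The 7 members that changed within P28 to 2 years by the F-test were Ifi203, Sp100, Usp18, Rtp4, Parp14, Ifit1 and Ifit2, with ranges of age means of 2.73, 2.19, 1.16, 2.73, 1.22, 2.11 and 1.05. Usp18 had its highest age mean at 18 months, with 8.61 and 8.35, and its lowest at 2 months, with 7.41, 7.28 and 7.26. This count depended on single arrays: it was 11 without P28 replicate 3, 4 without 2 months replicate 2 and 3 without 2 months replicate 3. With the replicate number as a block it was 5, without Ifit1 and Ifit2.

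Single arrays of the later ages stood apart in these genes, those of P28 most often: at most 3 members stood 1 log2 unit or more up or down on any array of another age. On P28 replicate 1, all 27 members stood above the mean of the other 2 arrays, with a median of 0.77 log2 units, and 11 stood at least 1 log2 unit above it. Over all genes tested 100 did so, or 0.769%. The members were Ifit1 (2.43), Rtp4 (2.28), Ifit3 (1.72), Sp100 (1.50), Oasl2 (1.38), Irf7 (1.38), Xaf1 (1.28), Rsad2 (1.20), Parp14 (1.16), Oas2 (1.12) and Irf9 (1.09). On P28 replicate 3, 0 of 27 stood above the mean of the other 2, with a median of -0.68, and 8 stood at least 1 log2 unit below it, against 1.49% of all genes. Rtp4 (-2.45), Ifit1 (-2.42), Ifit3 (-1.83), Sp100 (-1.31), Oasl2 (-1.30), Irf7 (-1.21), Parp9 (-1.10) and Dtx3l (-1.04) made up that group. P28 replicate 2 had no member past 1 log2 unit in either direction. The counts are descriptions of arrays, with no test.

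Leukocyte markers and sex-linked genes also differed between the P28 arrays. The summed intensity of 19 leukocyte markers was 6611, 5180 and 3703 on replicates 1, 2 and 3, the same order as the members. H2-Aa, a class II antigen-presenting chain, was at 9.35, 7.94 and 7.35, and Itgam, an integrin of myeloid cells, at 11.17, 10.83 and 8.56. Ptprc (7.34, 7.37 and 7.10), Csf1r (7.36, 7.40 and 7.33), the macrophage receptor, and Cd74 (7.29, 6.97 and 7.05), the class II chaperone, lay below the array median on all 3. Xist was at 12.55, 6.06 and 5.86. The part of leukocytes and of sex in the difference between these arrays was not tested.

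**Figure D4:**
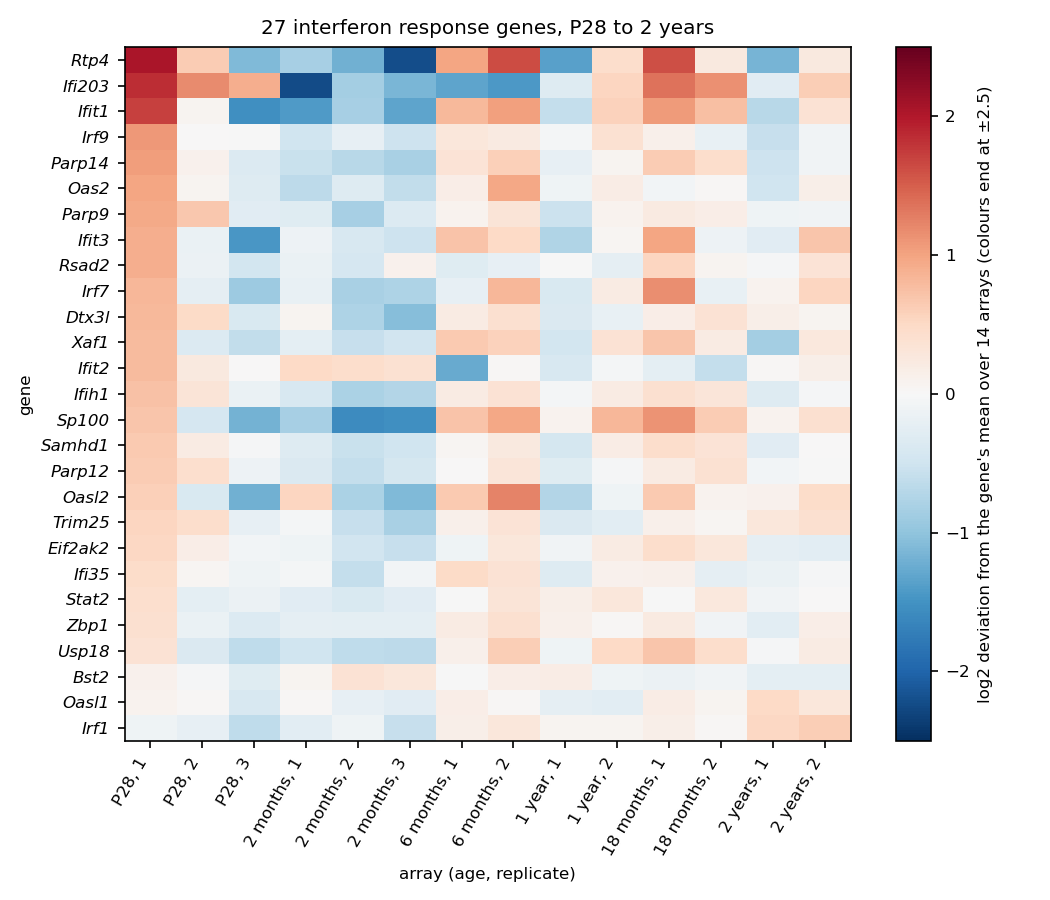
Log2 deviation from the gene's mean over 14 arrays (colour, red above and blue below) of 27 interferon response genes (rows, ordered by P28 replicate 1) on the arrays of P28 to 2 years (columns). P28 replicate 1, both arrays of 6 months and both of 18 months are red in most rows, and P28 replicate 3 and the arrays of 2 months are blue in most rows.

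Other later ages showed a like spread of smaller size. Rtp4 differed between the 2 arrays of 1 year by 1.79 (9.62 on replicate 2 and 7.83 on replicate 1), of 18 months by 1.37 (10.80 on replicate 1 and 9.43 on replicate 2) and of 2 years by 1.41 (9.42 on replicate 2 and 8.01 on replicate 1). Between the 2 arrays of an age, 21 to 24 of 27 members were higher on the same array at 6 months, 1 year, 18 months and 2 years. The medians were 0.20 to 0.35, against -0.04 to 0.06 over all genes. That array was picked by the count itself, so a majority was fixed in advance, and the share over all genes was not counted. Both arrays of each of these 4 ages had the same sex-linked pattern. At 2 months, Oasl2 stood 1.49 above the other arrays on replicate 1, Ifi203 1.24 below them on the same array (-1.24), and Rtp4 -1.21 from them on replicate 3.

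The members varied together from array to array. With the mean of each age taken off, over 14 arrays of P28 to 2 years, the median Pearson correlation over 351 pairs of members was 0.68, against 0.01 over pairs of every 7th gene tested. Parp14 (0.98), Sp100 (0.97) and Ifih1 (0.96) followed the mean of the other members most closely, and Bst2 (0.38), Ifi203 (0.45) and Oasl1 (0.56) least. Over the 12 age means the median was 0.83, against 0.02 over the same pairs of every 7th gene. Ifit2 differed between the scales: its correlation with the other members was -0.77 over the age means and 0.70 within the later ages. These are descriptions over few points that share arrays and batches. Where an age had 2 arrays, their values mirror each other once the age mean is taken off, so the 14 points are not independent. The P28 arrays stood apart most, so the correlations within the later ages also reflect the spread among them. The same limits hold for the ranking of other genes that follows.

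The genes outside the members with the most similar pattern within the later ages included known interferon-induced genes. They were Ifit3b (0.985), Trim30a (0.968), Gbp7 (0.964), Blnk (0.963), Magi3 (0.956), Ddx58 (0.940), Ddx60 (0.938), Gramd3 (0.932), Thap6 (0.929) and Cradd (0.925), by Pearson correlation over 14 arrays. Ifit3b is a near-identical copy of Ifit3, and probes may not tell them apart, so both values are uncertain. The same holds for other close families on the array, such as Oas and Pyhin genes. Over the 12 age means the most similar were Ddx60 (0.994), Clock (0.987), Pstpip2, Glt28d2, Sc5d and Kit (0.983 each), and Herc3, Cds1, Rnf213 and Gpcpd1 (0.982 each).

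Upstream genes of the pathway were also set at P28 against P7, where 5.94% of all genes were higher. Of 21 interferon ligands 8 were bright enough to test. Ifnk, an interferon of epithelial cells, was the only 1 called, with 7.87, 7.65 and 8.29 at P28, against 6.92, 6.86 and 6.99 at P7 (1.01). Ifnb1, the interferon that most cells make first, was below the array median, with 6.17, 6.24 and 6.19 at P28, against 6.37, 6.51 and 6.00 at P7. Of 7 receptor and Jak genes tested Jak2 rose (1.35), and of 7 sensor and adaptor genes Ddx58 (1.13), the sensor RIG-I, and Tlr3 (1.27), the endosomal sensor of double-stranded RNA. Of 5 other regulatory factors and Stat genes none passed by limma, with 3 at an unadjusted p under 0.05. The median differences were -0.22 for ligands, 0.65 for receptors and kinases, 0.73 for sensors and adaptors and 0.69 for other factors, against 0.09 over all genes. At 2 months against E14.5 the counts were 0 of 8 ligands, 3 of 7 receptors and kinases (Jak1, Jak2 and Ifngr1), 4 of 7 sensors and adaptors (Myd88, Ddx58, Tlr3 and Irf3) and 2 of 5 other factors (Irf2 and Stat3), all higher, where 10.3% of all genes were higher.

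Of 30 other interferon-induced genes tested, 9 were higher and 1 lower at P28 than at P7, against 5.94% and 4.57% of all genes, with a median of 0.63, against 0.09 over all genes. Ddx60, a helicase that aids RNA sensing, had 11.41, 10.81 and 9.24 at P28, against 7.40, 7.97 and 7.68 at P7 (2.80 ± 0.41, adjusted p = 1.46e-05). Trim30a (1.91), Oas1b (1.69), Herc6 (1.40), Tor3a (1.37), the immunoproteasome subunits Psmb8 (1.37) and Psmb9 (1.35), and the GTPases Irgm1 (1.19) and Gbp7 (1.16) also rose. Ifitm2, which hinders virus entry, fell (-1.18). At P7 against E17.5, Psmb9 (2.07), Psmb8 (1.98), Ddx60 (1.90) and Nmi (1.52) were higher. With ageing none of the 30 was called by limma, with 2 at an unadjusted p under 0.05.

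In the layers, 18 members lay above the array median on either array, a rule that admits a gene through the 1 array where it is high. Of the 18, 16 were higher in the epithelium of P28 than in the stroma of P7. The share of all genes higher in epithelium was not counted. The median difference was 0.62 log2 units, against 0.00 over 11220 genes. None reached the 2 log2 units set as threshold, which 0.57% of all genes passed toward epithelium. At 1 log2 unit, a threshold added after the values were seen, 7 of 18 passed, against 3.84% of all genes. Ifih1 was at 9.71 in epithelium, against 7.85 in stroma (1.85). Oasl2 was at 9.27 in epithelium, against 8.03 in stroma (1.25). Parp12 (1.10), Irf9 (1.09), Parp14 (1.09), Dtx3l (1.07) and Ifi35 (1.03) were the other 5. All of the 7 but Parp12 lay below the stroma array's median of 8.54, so they entered only through the epithelium array, where they were high. Ifit3 (-0.25) and Stat2 (-0.05) were the 2 that were not higher in epithelium, and Stat2 gave 0.00 with each array's median subtracted. With an offset of 64 in place of 16, 3 of 18 reached 1 log2 unit.

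Each layer had 1 array, so the differences have no replicate check, and layer, age and isolation method (dispase or laser capture) cannot be told apart. Ifih1 also differed by 1.89 between whole corneas of P28 and P7, and Dtx3l by 2.02. The epithelial marker sum was 57728 on the epithelium array and 16903 on the stroma array, and the stromal marker sum 4686 on the epithelium array and 26524 on the stroma array. The stroma array also carried lens and muscle genes, with sums of 97246 and 16715, against 4873 and 3490 on the epithelium array. The lowest intensity was 41.8 on the epithelium array and 42.6 on the stroma array, so dim genes are compressed there: Sp100 was at 7.93 in epithelium and 7.66 in stroma, below the median of both.

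**Figure D5:**
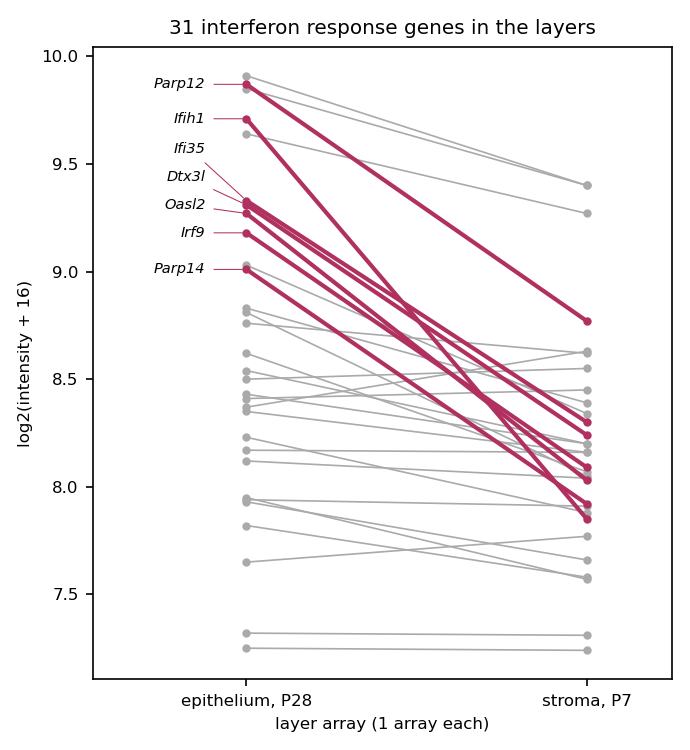
Log2(intensity + 16) (vertical axis) of 31 interferon response genes on the epithelium array of P28 (left) and the stroma array of P7 (right), 1 line per gene, with the 7 genes at least 1 log2 unit higher in epithelium in red and named. Ifih1 shows the largest difference, 1.85.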

How the data were processed

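RNA of whole mouse corneas and of 2 corneal layers was amplified (NuGEN Ovation) and hybridised to Affymetrix arrays, per the labels' protocols. The authors deposited linear intensities per probe set; the submitters' processing notes name PLIER and version 1.1 of Affymetrix Expression Console. Scanner files were not used here. All 34 columns were used, and 0 columns of sample values were left out. Of 35557 probe sets, 21789 carried exactly 1 gene symbol, 1621 several and 12147 none, and 2 values were missing. Per gene the probe set with the highest mean over the 32 whole-cornea arrays was taken (Irf1 had 2), and it was kept if above its array's median on at least 2 of them.

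From log2(intensity + 16), limma 3.58.1 (R 4.3.3) fitted 1 mean per age over 32 arrays with 20 residual and 4.1 prior degrees of freedom. All tests were two-sided, and p-values were adjusted over 12996 genes (Benjamini-Hochberg). Calls needed an adjusted p under 0.05 together with a difference of 1 or more. All p-values in the report come from this limma fit or its alternatives. Single arrays and layers were described without a test. The fit was tested on simulated data. Array medians were 188.2 to 240.6 in linear intensity, and arrays of the same age correlated at 0.926 to 0.989 over 28 pairs. Same replicate numbers did not deviate together (mean correlation -0.011 over 160 pairs), so no pairing was used. Replicates 3 and 2 of 2 months carry the marks 1A and 1B, whose meaning is not stated, and were averaged in 1 alternative.

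The members, the pathway and marker lists and the comparisons were chosen with earlier results of these data known. Any member and any gene of those lists could be named, and beyond them the 10 genes most correlated with the members within the later ages and the 10 most correlated over the 12 age means. Promoter sequences are RefSeq's. Alternatives covered the filter, offset, normalization, probe set choice, spread estimate, threshold, arrays in the fit, replicate block and each left-out array. Leaving out the lens-rich arrays and the layer threshold of 1 were added after seeing the data.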

Additional observations from a re-analysis of the deposited data

How the results depend on the processing

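No difference of a tested member turned its sign past a threshold: under the alternatives 3171 values of single members kept their side of the threshold, 91 lost a call, 57 gained one and 0 reversed, and with 1 array left out these counts were 7537, 111, 32 and 0. For E17.5 against E14.5 the 2 members called became 4 with offset 1, 5 after quantile normalization, 6 with array weights, 6 by adjusted p alone and 4 without the lens-rich arrays (2 to 3 with 1 array left out). The 7 of P7 against E17.5 ranged over 2 to 8 with 1 array left out, 2 being the count without P7 replicate 2. The 13 of P28 against P7 became 21 by adjusted p alone (9 to 15 with 1 array left out), and the 14 of 2 months against E14.5 became 8 without the lens-rich arrays (13 to 14). Ageing gave 1 throughout the left-out arrays, the 12 ages 22 to 24, and E14.5 to P14 14 to 16. The 7 of P28 to 2 years became 13 with array weights, 12 by adjusted p alone, 4 with only those ages in the fit and 4 with 1A and 1B averaged (3 to 11). The 24 calls over 11 neighbouring steps became 37 with array weights and 54 by adjusted p alone (18 to 39, with 39 without P28 replicate 3). With the replicate number as a block, the counts were 2, 7, 13, 14 and 1 for the 5 comparisons, 23 and 15 for the 12 and the earlier 6 ages, 5 for P28 to 2 years and 21 for the steps. The layer median of 0.62 was 0.68 with array medians subtracted, 0.65 with offset 1 and 0.55 with offset 64, and at least 1 log2 unit was reached by 7 members, against 0 at 2. The causes were not tested. Background correction and slide as a block were not run, since scanner files were not used here. Dim members have compressed differences, and Mx1, Mx2, Cmpk2 and Oas3 gave no test.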
